A study of Homo sapiens with 9 samples.

Results

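The 10 genes described here take up, store, export and sense iron in intestinal cells or release it from heme. FTL and FTH1 encode the light and heavy chains of ferritin, TFRC the transferrin receptor, SLC11A2 the divalent metal transporter DMT1, CYBRD1 the duodenal ferric reductase, SLC40A1 the iron exporter ferroportin, HEPH the ferroxidase hephaestin, HMOX1 the inducible heme oxygenase, and IREB2 and ACO1 the iron regulatory proteins. They were picked by symbol from the 60591 symbols of the count table. All 10 passed the filter on low counts, as did 15944 symbols in all.

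RNA was sequenced from undifferentiated Caco-2 (uCaco-2) cells, an established human colon adenocarcinoma line, in 3 groups of 3 biological replicates. One group received 300 μM cobalt (II) chloride (CoCl2), another 5 μM of an oxyquinoline derivative (OD, 4896-3212), and the controls only a change of medium. All 3 groups were lysed after 24 h and, as the labels state it, carried 0.5% DMSO, which is more than the OD dose would bring from the stated stock. CoCl2 and OD were used as chemical activators of hypoxia-inducible factors (HIF) in these cells, each at 1 dose and 1 time, and the doses differ, so the direct comparison of CoCl2 with OD compares these 2 exposures and not equal amounts of 2 compounds. Uncultured intestine was not part of these groups.

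The library totals ranged from 15998136 to 18298190 counts in control, from 16286502 to 24209427 with CoCl2 and from 16387054 to 19623776 with OD. Levels are given as CPM, counts relative to the library total after TMM scaling by edgeR, which corrects each library for a shift in composition. The TMM factors were 1.11 to 1.12 in control, 1.14 to 1.15 with OD and 0.770 to 0.795 with CoCl2, so the scaling itself moved every CoCl2 value. Without it the median log2 fold change of all tested genes between CoCl2 and control was -0.55 in place of -0.049, and the share of higher genes among the called ones was 23.9% in place of 46.0%. The epithelial markers EPCAM, CDH1, KRT8, KRT18 and CDX2 were present in all groups. Villin (VIL1), a brush-border marker, had a mean of 613 CPM in control, 454 CPM with OD and 112 CPM with CoCl2, and its part in the results below was not tested. The leukocyte marker PTPRC had 0 to 3 counts per library and the fibroblast marker COL1A2 0 to 1, while PECAM1 (endothelium) had 20 to 55, COL1A1 (fibroblasts) 135 to 480 and ALB (hepatocytes) 233 to 415.

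As background, an enterocyte reduces luminal ferric iron by the reductase CYBRD1 and imports the ferrous ion through SLC11A2. Iron from the blood enters bound to transferrin through TFRC, surplus iron is laid down in shells of ferritin light and heavy chains, and SLC40A1 together with the oxidase HEPH passes iron to the circulation. HMOX1 opens the heme ring and sets its iron free. When cell iron is low, ACO1 without its iron-sulfur cluster and IREB2 protein bind stem-loops called iron-responsive elements (IREs). Binding near the start of the ferritin and ferroportin transcripts blocks translation, and binding in the 3′ untranslated region (UTR) of TFRC protects the transcript from decay. The libraries measure transcript abundance only, so translation controlled through a 5′ UTR element is outside what they can show.

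The IREs are shown for the genes that held one, which were FTL, FTH1 and SLC40A1 in the 5′ UTR and TFRC in the 3′ UTR. The search looked for a bulged C, 5 paired bases and a 6-base loop of CAGTG followed by A, C or T. At least 3 of the 5 bases below the bulge had to pair, and G with T counted as a pair. The search ran on the transcript strand of GENCODE 44 (GRCh38). Such an element was present in the 5′ UTR of 6 of 19224 protein-coding transcripts (0.0312%) and in the 3′ UTR of 27 of 19606 (0.138%). Capitals mark the loop, and each sequence runs 5′ to 3′ in the letters of the genome.
FTL, 5′ UTR, chr19:48965336-48965362, plus strand: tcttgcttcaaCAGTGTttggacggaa
FTH1, 5′ UTR, chr11:61967575-61967601, minus strand: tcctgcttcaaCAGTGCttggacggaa
SLC40A1, 5′ UTR, chr2:189580662-189580688, minus strand: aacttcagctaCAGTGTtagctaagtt
TFRC, 3′ UTR, chr3:196050980-196051006, minus strand: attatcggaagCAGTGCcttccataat
TFRC, 3′ UTR, chr3:196050576-196050602, minus strand: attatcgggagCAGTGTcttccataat
TFRC, 3′ UTR, chr3:196050511-196050537, minus strand: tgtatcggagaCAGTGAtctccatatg
TFRC, 3′ UTR, chr3:196050464-196050490, minus strand: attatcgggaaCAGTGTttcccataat
These letters were not met in the other 6 genes, which says nothing of elements of another form.

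The transcripts of the iron storage genes moved strongly with CoCl2 and little with OD. FTL (chr19:48965309-48966879) had 1535, 1387 and 1494 CPM in control, 18793, 16880 and 17023 CPM with CoCl2 and 1406, 1372 and 1406 CPM with OD. The 3 CoCl2 libraries stood far above the others, and the OD and control libraries overlapped. In raw counts this was 26637 to 28526 FTL counts per control library, 26403 to 30955 with OD and 218133 to 324638 with CoCl2. FTL took 1.34% to 1.44% of all counts with CoCl2 and was the second most abundant symbol in all 3 libraries (rank 2), while it took 0.155% to 0.170% in control (rank 34 to 37). FTL rose 11.9-fold with CoCl2 (log2 fold change 3.58, SE 0.047, adjusted p = 4.29e-59 by the quasi-likelihood test of edgeR). With OD its log2 fold change was -0.078 with a 95% interval from -0.16 to 0.0060 (adjusted p = 0.104 by edgeR), an interval that leaves room for only a small change. In bulk RNA such a value cannot separate a change in RNA per cell from a change in the mix of cells. The direct comparison gave a 12.6-fold higher level with CoCl2 than with OD (log2 3.65, adjusted p = 1.78e-59 by edgeR).

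FTH1 (chr11:61959718-61967634), whose chain carries the ferroxidase site that lets iron enter the shell, had 93.9, 88.7 and 91.7 CPM in control. It had 313, 290.2 and 280.02 CPM with CoCl2 and 104, 109.8 and 92.5 CPM with OD. CoCl2 again lay above all other libraries, and 1 OD library fell within the control range. FTH1 rose 3.22-fold with CoCl2 (log2 1.69, SE 0.049, adjusted p = 9.37e-38 by edgeR). With OD the change was a small rise of 0.16 on the log2 scale (SE 0.050, adjusted p = 0.00386 by edgeR) between overlapping groups. CoCl2 exceeded OD by 1.52 on the log2 scale (adjusted p = 6.92e-36 by edgeR). This difference came to 0.98 when only library size was used for scaling.

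The transcripts of both ferritin chains rose with CoCl2, but not by the same factor. The number of FTL counts per FTH1 count within a library needs no scaling between libraries. It was 16.1 ± 0.397 in control (SD, n = 3), 59.7 ± 1.35 with CoCl2 (SD, n = 3) and 13.7 ± 1.36 with OD (SD, n = 3). The 3 ranges, 15.6 to 16.3, 58.2 to 60.8 and 12.5 to 15.2, did not overlap. The ratio was 3.71-fold higher with CoCl2 than in control (log2 difference 1.89, exact two-sided permutation p = 0.1, the smallest that 3 against 3 libraries allow). Against OD the log2 difference was 2.12 (exact permutation p = 0.1), and OD against control gave -0.23 (exact permutation p = 0.1). The adjusted value over these 3 tests is also 0.1, so none passes 0.05, and the design could not have.

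**Figure D1:**
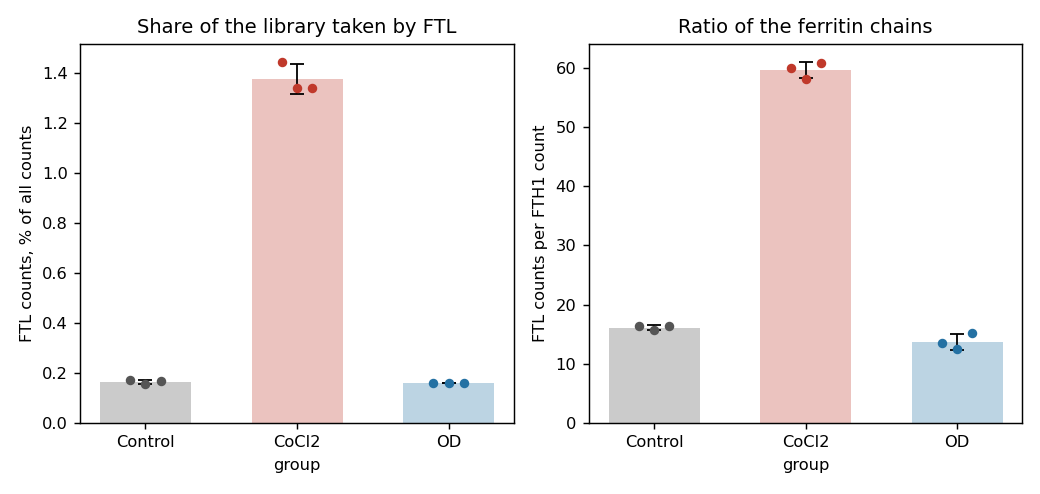
FTL counts as a percent of all counts (left) and FTL counts per FTH1 count (right) in each library. Points are libraries, bars are means of 3 and error bars are SD. FTL reaches 1.34% to 1.44% of the library with CoCl2, and the ratio rises from 15.6 to 16.3 in control to 58.2 to 60.8.

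Reads of ferritin can be shared with processed pseudogenes, so the pseudogene rows were summed as a limit on this. The 16 FTLP rows together had 180 to 187 counts per control library, 190 to 267 with OD and 1107 to 1747 with CoCl2, which was 0.485% to 0.864% of the FTL count of the same library. The 24 FTH1P rows together reached 4.42% to 7.12% of FTH1. With these reads added to the parent genes the log2 difference of the ratio was 1.86 for CoCl2 against control. Reads that fit several genes and were not counted at all cannot be seen in these sums. In addition, 63.2% of the exonic bases of FTH1 overlap BEST1 on the opposite strand. BEST1 had 8 to 30 counts per library, and the strand setting of the counting is not given in the sources used here.

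The transcript of HMOX1, the heme breakdown gene of the list, had the largest change of the 10 genes with CoCl2. HMOX1 (chr22:35380361-35394214) had 60.4, 57.2 and 62.4 CPM in control, 134, 135 and 136 CPM with OD and 2044, 1999 and 2101 CPM with CoCl2. The 3 groups were fully separate, with OD between the others. HMOX1 rose 34.2-fold with CoCl2 (log2 5.09, SE 0.048, adjusted p = 2.12e-67 by edgeR), which placed it at rank 96 by size among all 15944 tested genes. With OD it rose 2.25-fold (log2 1.17, SE 0.046, adjusted p = 5.00e-32 by edgeR). The difference between CoCl2 and OD was 15.2-fold (log2 3.92, adjusted p = 6.96e-63 by edgeR). HMOX1 thus changed more than FTL in both treatments.

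**Figure D2:**
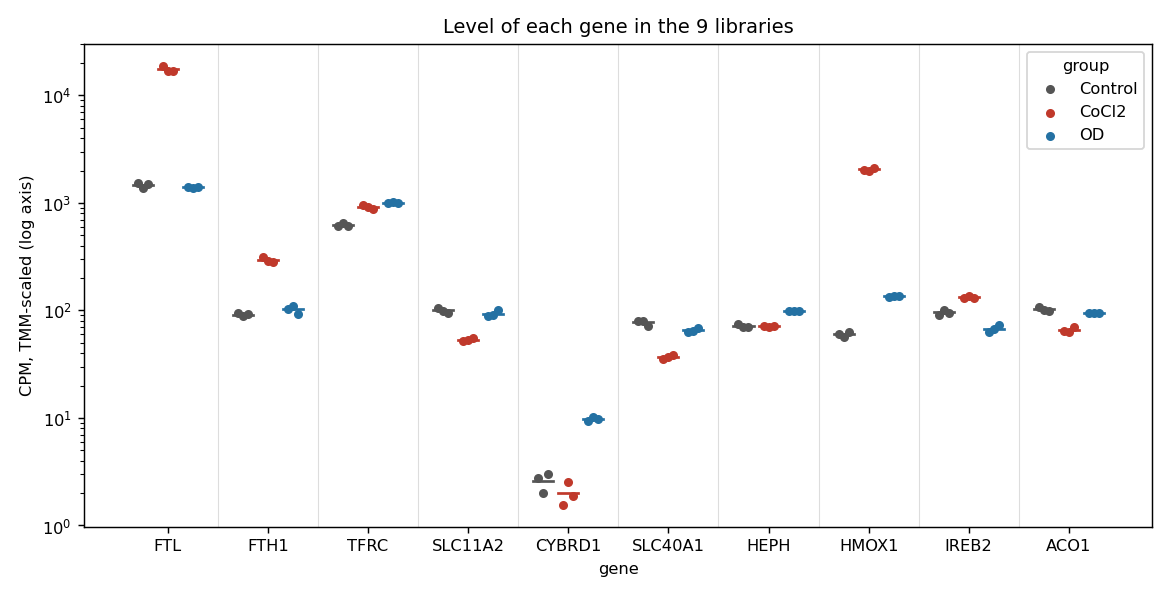
TMM-scaled CPM (log axis) of the 10 genes in each of the 9 libraries, coloured by group, with the mean of 3 as a line. FTL, FTH1 and HMOX1 lie far higher with CoCl2, CYBRD1 is set apart by OD, and TFRC is above control with both.

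The uptake genes took different directions. TFRC (chr3:196012511-196082153) had 612, 655 and 613 CPM in control, 954, 914 and 872 CPM with CoCl2 and 1008, 1011 and 989 CPM with OD. Both treatments lay above the control range, and OD lay slightly above CoCl2. TFRC rose with OD by 0.68 on the log2 scale (SE 0.040, adjusted p = 1.84e-23 by edgeR) and with CoCl2 by 0.54 (SE 0.040, adjusted p = 1.41e-19 by edgeR), so neither passed the limit of 1 on the log2 scale that a call required. The rise with OD did not depend on scaling, since TFRC took 0.113% to 0.116% of all counts with OD and 0.0677% to 0.0730% in control. The rise with CoCl2 did, since its share was 0.0687% to 0.0733%, overlapping control, and library size alone gave a log2 fold change of 0.037 (adjusted p = 0.336 by edgeR). CoCl2 against OD gave -0.13 (SE 0.040, adjusted p = 0.00156 by edgeR).

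SLC11A2 (chr12:50979401-51028566), the ferrous iron importer, had 106, 99.0 and 95.5 CPM in control, 51.6, 52.9 and 55.1 CPM with CoCl2 and 89.3, 90.3 and 101 CPM with OD. The CoCl2 libraries were the lowest, and OD overlapped control. SLC11A2 fell with CoCl2 by 0.91 on the log2 scale (SE 0.054, adjusted p = 5.34e-24 by edgeR). It stayed short of a call by a margin that other scalings closed, with -1.01 under upper-quartile factors and -1.42 under library size. OD gave a log2 fold change of -0.10, with a 95% interval from -0.20 to -0.0060 and an adjusted p = 0.0622 by edgeR. The level with CoCl2 was lower than with OD by 0.81 on the log2 scale (adjusted p = 1.64e-21 by edgeR).

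CYBRD1 (chr2:171522247-171558129), the reductase that works beside SLC11A2, was scarce. It had 51, 41 and 54 counts in control, 25, 33 and 36 with CoCl2 and 206, 228 and 185 with OD. In CPM these were 2.74, 2.01 and 3.03 in control, 1.56, 2.55 and 1.89 with CoCl2 and 9.36, 10.12 and 9.85 with OD. The OD libraries stood apart, and CoCl2 and control overlapped. CYBRD1 rose 3.79-fold with OD (log2 1.92, SE 0.136, adjusted p = 9.92e-20 by edgeR) and was 4.98-fold lower with CoCl2 than with OD (log2 -2.32, SE 0.151, adjusted p = 6.74e-22 by edgeR). CoCl2 against control gave -0.39 with a 95% interval from -0.79 to 0.00070 (adjusted p = 0.0654 by edgeR), and -0.90 with library size alone (adjusted p = 7.95e-05 by edgeR). CYBRD1 was the only one of the 10 genes that was called with OD and not with CoCl2.

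Of the uptake genes, TFRC and CYBRD1 were higher with OD, so the short stretches before their start sites that hold the core of a hypoxia response element are shown. The core is ACGTG or GCGTG on either strand, the letters HIF recognises within longer sites, and it was present in 43.2% of all 35116 RefSeq promoters (250 bases before the start, GRCh38.p14), so a match is common.
TFRC, chr3:196082161-196082190, minus strand, core 88 bases before the start: cctcgcgagcgtACGTGcctcaggaagtga
CYBRD1, chr2:171522315-171522344, plus strand, core 147 bases before the start: ccctcggcggccGCGTGatcccgggggtgg
The capitals mark the core. CYBRD1 has another start site in RefSeq without a core in its window. Promoters were given for 8 of the genes (FTH1 and HMOX1 were not among them). FTL, SLC11A2, IREB2 and ACO1 also held a core before at least 1 start, and SLC40A1 and HEPH held none. FTL had 3 cores in its window and SLC11A2 had 3 before 1 of its starts. FTL, SLC11A2, IREB2 and ACO1 were not higher with OD. The share of 43.2% is per start site, and a gene with several starts had more windows that could hold a core. The antioxidant response element TGACNNNGC, searched on both strands, was in 10.9% of all promoters and in 0 of these 8 genes within this window.

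The export genes differed. SLC40A1 (chr2:189560590-189583758) had 80.3, 80.2 and 72.0 CPM in control, 35.1, 36.6 and 38.2 CPM with CoCl2 and 63.4, 63.9 and 67.9 CPM with OD. The 3 groups did not overlap, and CoCl2 was lowest. SLC40A1 fell 2.11-fold with CoCl2 (log2 -1.08, SE 0.057, adjusted p = 2.93e-26 by edgeR), only just past the fold limit. A test against the limit itself (glmTreat of edgeR) gave an adjusted p = 0.0777. With OD the fall was 0.25 on the log2 scale (adjusted p = 2.24e-05 by edgeR), and CoCl2 lay below OD by 0.83 (adjusted p = 1.68e-20 by edgeR). With CoCl2 the transcript of SLC40A1 moved in the opposite direction to FTL and FTH1. Any part of their 5′ elements in these transcript levels was not tested.

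HEPH (chrX:66162671-66268867), which oxidises the exported iron, had 74.9, 70.2 and 70.4 CPM in control, 71.6, 70.7 and 72.3 CPM with CoCl2 and 98.9, 99.7 and 97.8 CPM with OD. OD lay above both other groups, which overlapped. HEPH rose with OD by 0.46 on the log2 scale (SE 0.048, adjusted p = 5.08e-13 by edgeR). Between CoCl2 and control the log2 fold change was -0.0047, with a 95% interval from -0.10 to 0.094 (adjusted p = 0.934 by edgeR). That value rests on the scaling, since it was 0.046 with RLE factors and -0.51 with library size alone (adjusted p = 5.15e-13 by edgeR). CoCl2 against OD gave -0.47 (adjusted p = 2.68e-13 by edgeR). The transporter and its oxidase thus differed with OD, where SLC40A1 was slightly lower and HEPH higher than control.

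Neither iron sensor passed the fold limit under TMM scaling. IREB2 (chr15:78437431-78501453), the iron regulatory protein that is degraded when iron is plentiful, had 91.4, 102 and 95.5 CPM in control, 129, 136 and 132 CPM with CoCl2 and 63.1, 67.1 and 72.4 CPM with OD. The groups were separate, with OD lowest and CoCl2 highest. IREB2 fell with OD by 0.51 on the log2 scale (SE 0.051, adjusted p = 7.52e-14 by edgeR). With CoCl2 it rose by 0.46 (SE 0.049, adjusted p = 6.65e-13 by edgeR), a direction that turned to -0.048 with library size alone (adjusted p = 0.376 by edgeR). The difference between CoCl2 and OD was 0.97 (SE 0.050, adjusted p = 7.29e-27 by edgeR). It passed the fold limit with RLE factors (1.02) and without OD replicate 3 (1.01).

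ACO1 (chr9:32384603-32454769), which is the cytosolic aconitase when it holds its iron-sulfur cluster, had 109, 101 and 98.7 CPM in control, 64.9, 63.5 and 69.8 CPM with CoCl2 and 94.5, 93.8 and 94.0 CPM with OD. CoCl2 was lowest, and OD lay just under the control range. ACO1 fell with CoCl2 by 0.63 on the log2 scale (SE 0.051, adjusted p = 6.05e-18 by edgeR). With OD the fall was 0.13 (SE 0.048, adjusted p = 0.0168 by edgeR), and library size alone gave an adjusted p = 0.105 by edgeR for it. CoCl2 against OD gave -0.51 (adjusted p = 4.98e-14 by edgeR). With library size alone ACO1 passed the fold limit, at -1.14 for CoCl2 against control and -1.05 for CoCl2 against OD. With CoCl2, therefore, IREB2 and ACO1 had opposite signs under TMM scaling and the same sign under library size.

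**Figure D3:**
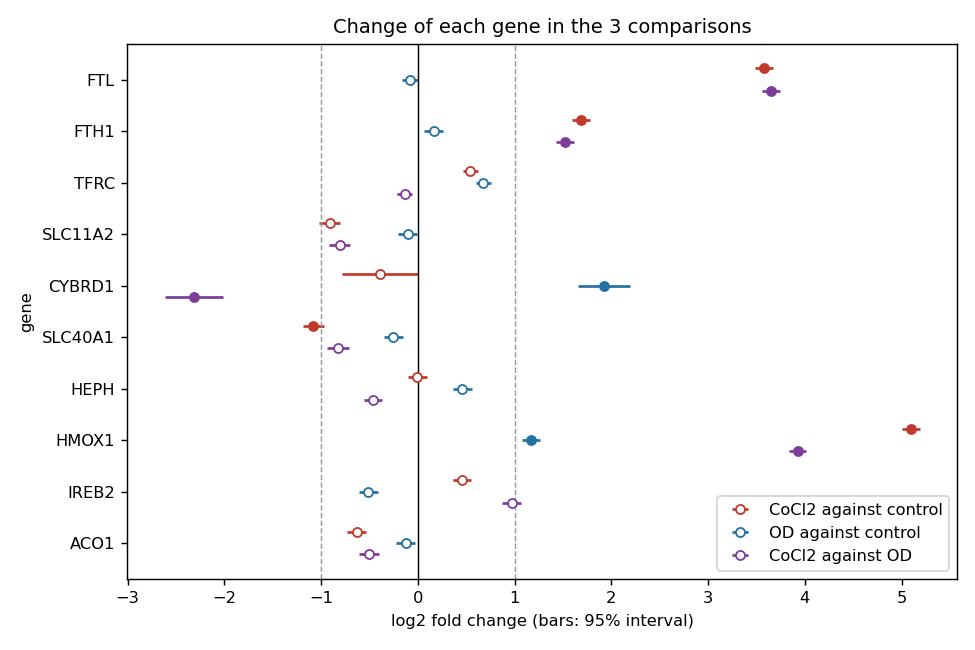
Log2 fold change of each of the 10 genes in the 3 comparisons, with 95% intervals. Filled points passed an adjusted p of 0.05 and the dashed fold limit of 1. HMOX1 and FTL reach 5.09 and 3.58 for CoCl2 against control, and CYBRD1 reaches 1.92 for OD against control.

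Counted over the 10 genes, CoCl2 against control gave 3 called higher (FTL, FTH1 and HMOX1) and 1 called lower (SLC40A1). Of all tested genes, 19.9% were called higher and 23.4% lower in that comparison. At an adjusted p under 0.05 without the fold limit, 8 of the 10 passed, 5 higher and 3 lower, against 83.2% of all genes. The libraries of both groups did not overlap for 8 of the 10, against 83.4% of all genes. The median log2 fold change was 0.23 over the 10 genes and -0.049 over all genes, and the median size of the change was 0.77 against 0.86. The share of the 10 genes that passed was thus near the share of all genes. By size of change among the 15944 tested genes, HMOX1 had rank 96, FTL rank 343 and FTH1 rank 3291. With library size alone, 3 were called higher and 3 lower.

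OD against control gave 2 called higher (HMOX1 and CYBRD1) and 0 lower, where 9.09% of all genes were called higher and 4.16% lower. In the edgeR fit, 3 of the 10 were lower at an adjusted p under 0.05 without the fold limit (SLC40A1, IREB2 and ACO1) and 5 were higher (FTH1, HMOX1, TFRC, CYBRD1 and HEPH). SLC11A2 joined the lower ones at an unadjusted p = 0.0417 in edgeR. These 8 compare with 65.6% of all genes. Libraries did not overlap for 7 of the 10, against 68% of all genes. DESeq2 also called 2 higher and 0 lower. The median log2 fold change was 0.042, against -0.010 over all genes.

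CoCl2 against OD gave 3 called higher (FTL, FTH1 and HMOX1) and 1 called lower (CYBRD1), beside 17.5% and 23.8% of all genes. All 10 passed an adjusted p under 0.05 without the fold limit, against 83.5% of all genes, and in all 10 the libraries did not overlap, against 83.8%. Of these 10, 4 were higher with CoCl2 and 6 were lower, and the median log2 difference was -0.30. With library size alone, 2 were called higher and 5 lower, and the median of all genes moved to -0.60. The 3 comparisons share libraries, so they are not independent of each other.

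**Figure D4:**
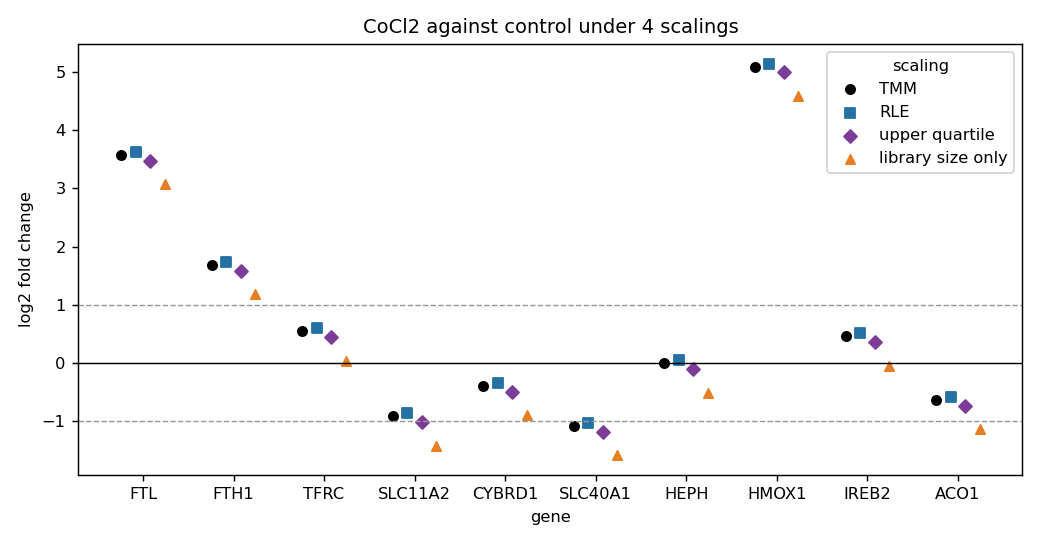
Log2 fold change of CoCl2 against control for the 10 genes under 4 ways of scaling the libraries. FTL, FTH1 and HMOX1 stay above 1 in all 4, while TFRC and IREB2 fall to 0.037 and -0.048 when only library size is used.

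Divided by the length of the canonical transcript, the control levels in CPM per kb were led by FTL with 1690 ± 87.5 (SD, n = 3), then TFRC with 125 ± 4.94 (SD, n = 3), FTH1 with 76.0 ± 2.17 (SD, n = 3) and HMOX1 with 38.6 ± 1.71 (SD, n = 3). SLC11A2 at 24.3 and SLC40A1 at 23.3 CPM per kb overlapped between libraries. So did HEPH at 16.2 with IREB2 at 15.2, and IREB2 with ACO1 at 13.8 CPM per kb. CYBRD1 was last at 0.613 CPM per kb. With CoCl2 the order became FTL 20167, HMOX1 1318, FTH1 245 and TFRC 182 CPM per kb, followed by IREB2 at 20.9, HEPH at 16.1, SLC11A2 at 12.9, SLC40A1 at 11.003, ACO1 at 8.88 and CYBRD1 at 0.472, with no overlap between neighbours. HMOX1 thus moved from rank 4 to rank 2. With OD, FTL stood at 1601 and TFRC at 200.03 CPM per kb, HMOX1 at 86.8 overlapped FTH1 at 84.9, and SLC11A2 at 22.6 overlapped HEPH at 22.3. SLC40A1 followed at 19.5, ACO1 at 12.6, IREB2 at 10.7 and CYBRD1 at 2.31 CPM per kb. FTL stayed first and CYBRD1 last when all annotated exons were used as the length, and several of the ranks between them changed. In control, for example, FTH1 then stood above TFRC, at 45.6 against 36.1 CPM per kb. The limits given above for ferritin reads shared with other genes hold for these levels too.

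The genes whose log2 CPM ran most alike across the 9 libraries were named for FTL, HMOX1 and TFRC, by Pearson's r among 13428 genes. This is a description, since the points share 3 groups and the same libraries. For FTL they were TTC1, AMMECR1L and RAE1 (each r = 0.9996), and 601 genes had r above 0.99. For HMOX1 they were PTTG1IP (r = 0.9998), the autophagy receptor SQSTM1 (r = 0.9994) and the autophagosome protein MAP1LC3B (r = 0.9993), with 469 genes above 0.99. SQSTM1 had log2 fold changes of 3.15 with CoCl2 and 0.64 with OD, and MAP1LC3B had 3.49 and 0.83. For TFRC 6 genes were above 0.99. They were led by the MYC antagonist MXI1 (r = 0.995), the sterol regulator INSIG2 (r = 0.992) and the glycolytic enzyme HK2 (r = 0.992). TFRC changed less with CoCl2 than FTL and HMOX1, so the numbers above 0.99 do not compare how rare the patterns are. MXI1 had log2 fold changes of 1.70 with CoCl2 and 2.04 with OD. It was picked for its likeness to TFRC in these libraries, so the order shared with TFRC is not a further result.

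A wider list of 46 other genes of iron and heme handling in 9 roles placed the 10 genes in their pathways. Of these, 41 were tested, and LCN2, FTMT, HAMP, HJV and ALAS2 were too scarce, with at most 6 counts in any library. CoCl2 against control called 6 of 41 higher (14.6%) and 12 lower (29.3%), beside 19.9% and 23.4% of all genes. OD against control called 5 higher (12.2%) and 3 lower (7.32%), beside 9.09% and 4.16%. The direct comparison of CoCl2 with OD called 4 higher (9.76%) and 14 lower (34.1%), beside 17.5% and 23.8%. With library size alone, CoCl2 against control gave 2 higher (BACH1 and NFE2L2) and 14 lower, and CoCl2 against OD gave 1 higher (BACH1) and 17 lower. The medians over the 41 genes were 0.0034, 0.14 and -0.27 on the log2 scale.

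Among the partners of HMOX1, HMOX2, the constitutive oxygenase, and BLVRB were not called in any comparison. HMOX2 was higher by 0.41 on the log2 scale with CoCl2 and by 0.34 with OD (adjusted p = 1.80e-10 and 4.62e-08 by edgeR). BLVRB was higher by 0.83 with CoCl2 (adjusted p = 3.77e-20 by edgeR) and gave -0.098 with OD (adjusted p = 0.151 by edgeR). With library size alone the CoCl2 values were -0.092 for HMOX2 and 0.32 for BLVRB. BLVRA, which reduces the biliverdin that heme oxygenase forms, had a mean of 15.4 CPM in control, 7.25 CPM with CoCl2 and 22.7 CPM with OD and fell with CoCl2 (log2 -1.09, SE 0.101, adjusted p = 2.82e-15 by edgeR). Of the 4 regulators, BACH1, the heme-binding repressor of HMOX1, rose with CoCl2 from 32.1 to 173 CPM (log2 2.43, SE 0.054, adjusted p = 1.67e-46 by edgeR). NFE2L2, the activator NRF2, rose from 126 to 372 CPM (log2 1.57), and its inhibitor KEAP1 rose from 67.6 to 191 CPM (log2 1.503, or 0.997 with library size alone). The transcripts of the repressor and of the activator of HMOX1 were thus both higher with CoCl2, and none of the 4 regulators was called with OD. Under the fold limit, OD gave log2 fold changes of 0.82 for BACH1, 0.37 for NFE2L2, 0.14 for KEAP1 and -0.46 for FBXL5. Each had an adjusted p under 0.05 by edgeR. FBXL5, which targets IREB2 protein for degradation, was not called with either treatment. Its value with CoCl2 was 0.11 (adjusted p = 0.138 by edgeR), or -0.39 with library size alone.

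Of the genes that load or unload ferritin, NCOA4, the receptor that carries ferritin to autophagy, rose with CoCl2 from 339 to 930 CPM (log2 1.46, SE 0.041, adjusted p = 3.82e-41 by edgeR) and was not called with OD. The iron chaperones PCBP1 and PCBP2 were not called. PCBP1 was higher by 0.59 on the log2 scale with CoCl2 (adjusted p = 1.85e-12 by edgeR) and lower with OD (-0.25, adjusted p = 0.00139 by edgeR). PCBP2 gave 0.0034 with CoCl2 (adjusted p = 0.949 by edgeR) and 0.091 with OD (adjusted p = 0.0731 by edgeR). With library size alone the CoCl2 values were 0.089 for PCBP1 and -0.50 for PCBP2. With library size alone the log2 fold change of NCOA4 with CoCl2 was 0.95, under the fold limit.

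Enzymes of heme synthesis moved in both directions with CoCl2. ALAS1, the first and rate-limiting enzyme, rose from 84.3 to 204 CPM (log2 1.27, SE 0.045, adjusted p = 8.80e-36 by edgeR), with a log2 fold change of 0.77 under library size alone. UROS fell from 38.0 to 5.69 CPM (log2 -2.74, SE 0.091), PPOX from 10.1 to 1.64 CPM (log2 -2.57, SE 0.157) and ALAD from 38.9 to 15.1 CPM (log2 -1.37, SE 0.072). UROD fell with OD (log2 -1.02, or -0.98 with library size alone) and was not called with CoCl2. FECH, which inserts the iron, was not called in any comparison.

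Of the genes listed under heme transport, SLC46A1, a folate carrier, fell with CoCl2 from 86.3 to 23.8 CPM (log2 -1.85, SE 0.059, adjusted p = 7.16e-38 by edgeR), and the heme exporter FLVCR1 fell from 41.7 to 17.99 CPM (log2 -1.21). FLVCR2 rose with OD from 10.7 to 22.2 CPM (log2 1.05, SE 0.084). In the transferrin cycle, STEAP3, the endosomal ferric reductase that works after TFRC, fell in both treatments. Its mean was 39.9 CPM in control, 18.3 CPM with OD (log2 -1.12, SE 0.068, adjusted p = 7.94e-23 by edgeR) and 3.997 CPM with CoCl2 (log2 -3.30, SE 0.095, adjusted p = 2.23e-40 by edgeR). TFRC itself was above control in both under TMM scaling. With library size alone the log2 fold change of TFRC with CoCl2 was 0.037 (adjusted p = 0.336 by edgeR), and that of STEAP3 was -3.81. The metal importer SLC39A8 fell with CoCl2 (log2 -1.31). TF, the ligand of TFRC, was scarce and was not called.

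In mitochondria, the iron importer SLC25A37 fell with CoCl2 from 81.4 to 17.7 CPM (log2 -2.21, SE 0.063, adjusted p = 1.13e-40 by edgeR). It was not called with OD. Of the hepcidin axis and ferroxidases, the 3 tested genes were called higher with OD, beside 9.09% of all genes, all from low levels, and the other 2 listed genes (HAMP and HJV) were not tested. BMP6, a ligand that induces hepcidin in the liver, rose from 3.73 to 23.7 CPM (log2 2.66, SE 0.112, adjusted p = 7.33e-29 by edgeR). Ceruloplasmin (CP), the plasma relative of HEPH, rose from 1.94 to 4.48 CPM (log2 1.21, SE 0.169) and TMPRSS6 from 0.718 to 1.57 CPM (log2 1.098, SE 0.281). CP fell with CoCl2 to 0.736 CPM (log2 -1.33, SE 0.263), so that CP, HEPH and CYBRD1 were each higher with OD than with CoCl2 in the direct test. Among other transcripts with an IRE, EPAS1, which encodes a HIF α subunit, rose with both, from 66.0 CPM in control to 163 CPM with CoCl2 (log2 1.30, SE 0.047, or 0.80 with library size alone) and 142 CPM with OD (log2 1.11, SE 0.046).

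**Figure D5:**
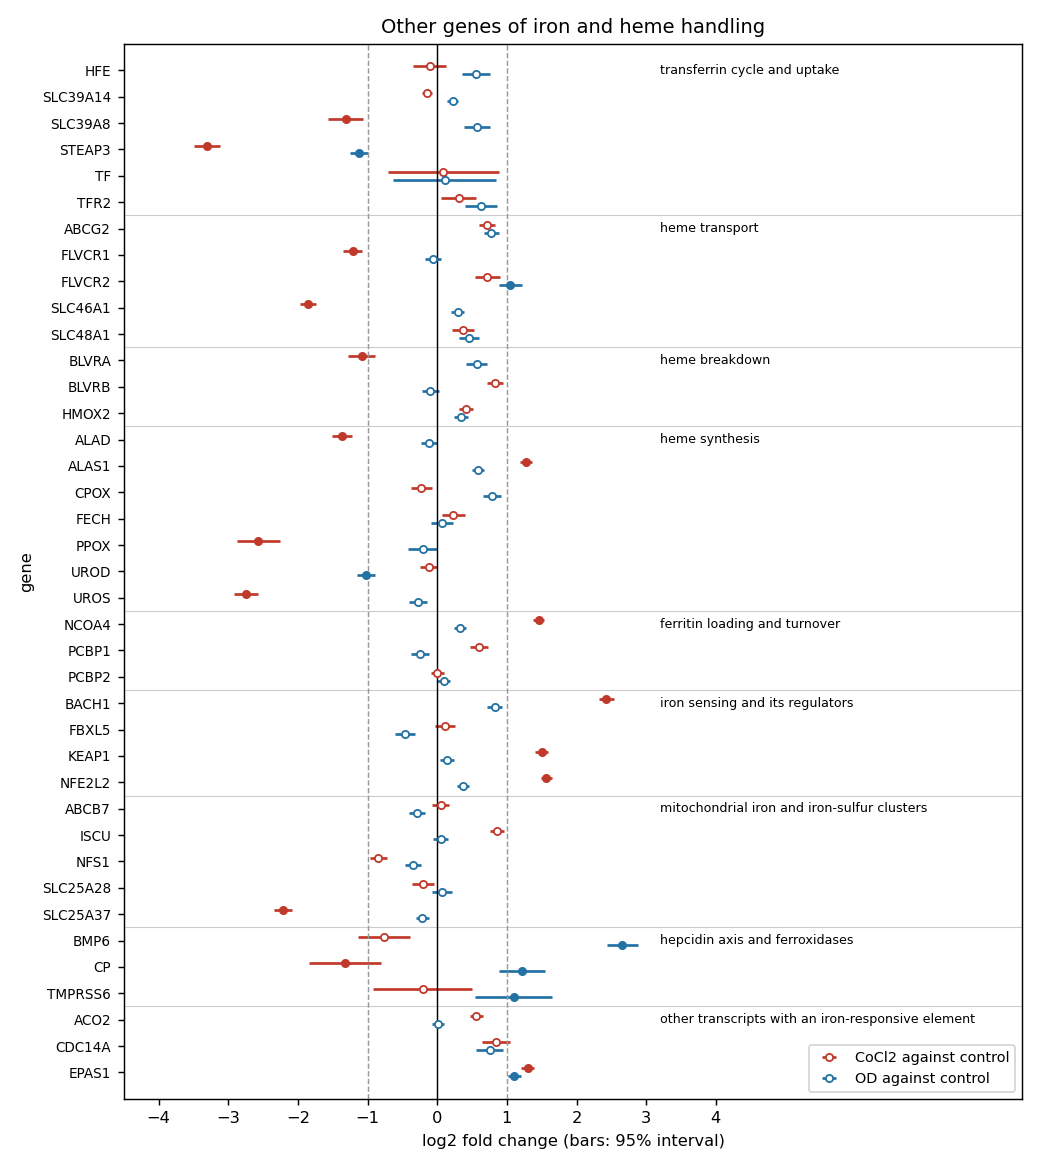
Log2 fold changes of CoCl2 and OD against control for genes of the wider list, grouped by role, with 95% intervals. Filled points were called. CoCl2 lowers STEAP3 (-3.30), UROS (-2.74), PPOX (-2.57) and SLC25A37 (-2.21) and raises BACH1 (2.43), and OD raises BMP6 (2.66).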

How the data were processed

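Stranded poly(A) mRNA libraries of uCaco-2 cells were sequenced with single-end reads. Per the methods and the submitters' processing notes, the authors checked reads with FastQC 0.11.9, trimmed adapters with cutadapt 2.10, mapped to GRCh38 with STAR 2.7.5b, counted reads on GENCODE genes and tested with DESeq2. The deposited table holds raw counts per gene symbol, without normalization, and 0 columns were left unused. The counting tool and its strand setting are not given in the sources used here.

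From these counts, edgeR 4.0.16 (R 4.3.3) computed TMM factors, kept 15944 symbols with its expression filter and fitted a robust quasi-likelihood model to all 9 libraries with 1 mean per group. P-values were adjusted by Benjamini-Hochberg over all tested genes, and a gene was called where the adjusted p was under 0.05 and the size of its log2 fold change exceeded 1. Intervals are 1.96 SE to each side. Within a group, each pair of replicates differed beyond sampling noise (chi-square per degree of freedom 1.74 to 3.05), so all libraries were kept. Replicate numbers were not used to pair the samples in the main fit, since the methods name no pairing. Counting precision is set by the 15998136 to 24209427 counts per library, and reads carried no molecular identifiers to remove PCR copies. Coordinates are from GENCODE 44 (GRCh38), and promoters from RefSeq (GRCh38.p14).

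The 10 genes, the wider list, the role groups and the tests were chosen with earlier results of these data known. All 10 genes are named, as are called members of the wider list, with uncalled ones named for their role (2 of the list are counted but not reported singly here), and the 3 genes most like FTL, HMOX1 and TFRC among those with a mean of at least 1 CPM. The alternatives were fits on 6 libraries, DESeq2 1.42.0 on 9 or 6 libraries, scaling by RLE, by upper quartiles or by library size only, 2 other count filters, a replicate block, glmTreat, the adjusted p alone and each library left out.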

Additional observations from a re-analysis of the deposited data

How the results depend on the processing

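Of the refitted fold changes (30 results, 20 alternatives each), 567 kept their direction and their side of the threshold, 25 newly passed it, 2 no longer did and 6 turned in sign. HEPH (CoCl2 against control) turned to 0.011 with DESeq2 on 9 libraries and 0.046 with RLE factors, and leaving out 1 library gave -0.028 to 0.027. IREB2 turned to -0.048 with library size. The members called in CoCl2 against OD became 7 with library size. With the adjusted p alone, 8, 8 and 10 members and 34, 31 and 34 wider genes passed in CoCl2 against control, OD against control and CoCl2 against OD. In OD against control, 5 wider genes in place of 8 were called among those with at least 10 counts in every library, fewer genes being tested, and 2 with glmTreat. Leaving out each library in turn gave 4, 2, and 4 to 5 members called, and 18, 6 to 8, and 16 to 18 wider genes. The FTL to FTH1 ratio then gave log2 differences of 1.87 to 1.91, -0.31 to -0.17 and 2.06 to 2.20.

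Genes called over the whole table numbered 6891, 2113 and 6580. They became 4717, 1134 and 4394 with at least 10 counts in every library, and 13260, 10466 and 13311 with the adjusted p alone. With glmTreat 965 were called for OD against control. Without the TMM factors, the higher genes were 23.9% of the calls (CoCl2 against control) and 18.3% (CoCl2 against OD), in place of 46.0% and 42.4%.

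With the replicate number as a block, 4, 2 and 4 members and 18, 8 and 18 wider genes were called, and 6901 in place of 6891 genes overall for CoCl2 against control. Deviations from the group means correlated little between samples with the same number (-0.0049 to 0.038). For other pairs the correlations were -0.047 to 0.025, so the same-number values reached slightly higher. Whether this reflects a weak pairing was not tested. Pairing the ratios by number gave an exact permutation p = 0.25, the smallest it can give. Among the members, CYBRD1 had the fewest counts and the widest intervals. Among the tested wider genes, TF had the widest intervals, followed by TMPRSS6, and both were scarce. CP also had few counts and wide intervals.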
